A study of Mus musculus with 4 samples.

Results

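The drug 4-hydroxytamoxifen (4OHT) was examined in cells that lack the fusion protein it was meant to switch on. The comparison used 2 of the 4 arrays of the study, OSK + 4OHT and OSK − 4OHT, chosen by their sample titles. Both held total RNA from OE-MEFs, which are fibroblasts of male mouse embryos at E13.5 with an EGFP reporter under the Oct4 promoter, infected with retroviruses for Oct4, Sox2 and Klf4 (OSK). The treated culture received 1 µM 4OHT from 3 days postinfection (dpi), the other received the ethanol vehicle, and both were collected at 8 dpi. The remaining 2 arrays held the same kind of cells that also carried AKT-MER, an AKT kinase joined to a modified estrogen receptor, without or with the drug (OSKA − 4OHT and OSKA + 4OHT). The free-text label of OSKA + 4OHT gives the drug but calls AKT-MER inactive, which goes against the design of the study. The study ran the OSK cultures to record what the drug does when AKT-MER is absent. The cultures were measured in bulk, so infected, uninfected and partly reprogrammed cells contributed together. With 1 array per group there was no replicate check and no test, and the position of an array on the slide cannot be told apart from its group.

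4OHT is the active form of tamoxifen and binds the hormone pocket of the estrogen receptors, where it blocks or alters their activity. In fusion proteins such as AKT-MER, that binding releases the attached enzyme. Tamoxifen and its metabolites also bind proteins outside this family, among them enzymes of the late cholesterol pathway, and as cationic amphiphilic molecules they collect in lysosomes. The drug may therefore act on cells that hold no fusion protein.

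The absence of the fusion was visible in 1 probe of Esr1, the gene of estrogen receptor alpha (chromosome 10, 5489352 to 5489411 in mouse build NCBI37). The probe is shown because its sequence codes for a stretch of the hormone-binding domain, the part of the receptor used in such fusions.

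Esr1 probe: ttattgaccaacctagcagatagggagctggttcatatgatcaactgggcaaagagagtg

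A level is given throughout as the log2 intensity of a probe less the 75th percentile of its array, and a difference is the level with 4OHT minus the level without it. On this scale the Esr1 probe read at background in both OSK cultures, at −5.93 and −5.69, against 3.11 and 3.32 in OSKA − 4OHT and OSKA + 4OHT. A second Esr1 probe, spotted 10 times per array (chromosome 10, 5343056 to 5343115), gave faint intensities with a median of 25.01 in OSK − 4OHT and 8.76 over the 9 usable spots in OSK + 4OHT. That probe was well above background on 7 of 10 spots without 4OHT and on 1 of 9 with it. On the OSKA arrays the medians of that probe were 23.4 without and 34.0 with 4OHT, so OSK + 4OHT was the array apart. The repeated spots show the spread within an array and not between cultures.

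Other proteins that 4OHT or tamoxifen can bind were measured as follows. Esr2, estrogen receptor beta, read 1.56 without and 1.82 with 4OHT. Gper1, a membrane receptor for estrogen, read −1.06 without and −1.67 with 4OHT, and the orphan receptor gene Esrrg read −3.08 and −3.67, its other probe differing by −0.60. Both were lower by over 1.5-fold at dim levels, where the scatter between arrays was wide, and neither was under normexp, a model-based background correction. Esrra, a related receptor, differed by 0.12, and Esrrb was not well above background. Of the cholesterol enzymes that bind tamoxifen, Ebp read 5.70 without and 5.70 with 4OHT and Dhcr7 0.48 and 0.088. Ebp was thus alike on both arrays and Dhcr7 was lower with the drug.

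Genes that respond to estrogen leaned downwards. Of 18 measured, 5 were higher and 13 lower, with a median difference of −0.11 against −0.0037 for all genes. Greb1, a coactivator induced by the receptor, read −1.38 without and −2.28 with 4OHT and its second probe differed by −0.38. Myb, a transcription factor gene, differed by −0.56 and Wnt4, a secreted signal, by 0.32, though the second probe of Wnt4 differed by −0.20. Ctsd, the protease cathepsin D, was the highest member at 0.64 and the only one at least 1.5-fold higher, though its second probe differed by 0.032. Genes that take up, oxidise or export drugs were divided, with 7 of 16 higher, or 3 when the arrays were scaled on their spike-in probes, and a median of −0.069. The efflux pump gene Abcg2 read 1.66 without and 2.13 with 4OHT and the oxidase gene Cyp1b1 3.23 and 3.29. Cyp1a1 and Cyp1a2, the marker genes of an active aryl hydrocarbon receptor, were not well above background in either culture. The receptor gene Ahr differed by −0.39, but its second probe differed by 0.26.

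The 75th percentile of intensity, which set the scale, was 462 in OSK − 4OHT and 377 in OSK + 4OHT, and 53.2% and 52.4% of the spots were well above background. Of 34757 genes or transcripts on the array, 19841 were well above background on both OSK arrays and were compared, 908 were so without 4OHT alone and 606 with 4OHT alone. Each gene is represented by its brightest probe. The median software error of a difference was 0.20, and probes spotted 10 times gave a median SD of 0.085 for it. Both are errors of the measurement on these arrays and leave out the variation between cultures.

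Between the OSK arrays 121 genes (0.61%) were at least 2-fold higher with 4OHT and 55 (0.277%) at least 2-fold lower. At 1.5-fold the counts were 858 (4.32%) and 323 (1.63%). Higher genes made up 68.8% of the 2-fold calls, against 51.2% with no filter on dim probes and 16.3% when the arrays were scaled on their spike-in probes, which moved the median of all genes from −0.0037 to −0.30. Higher and lower below are against 0 on the scale named. Where no other scale is named, 49.4% of all genes were higher with 4OHT, which is the share to set beside the counts of the lists. The counts were set mostly by dim genes, so the genes were divided into 3 equal parts by their mean level on both OSK arrays, called bright, middle and dim genes. The SD of the differences was 0.20 for the bright genes, 0.26 for the middle and 0.40 for the dim ones. The share of genes higher with 4OHT by any amount was 52.4% of the bright, 43.6% of the middle and 52.2% of the dim genes.

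Among the 6614 bright genes, 127 (1.92%) were at least 1.5-fold higher with 4OHT and 6 (0.0907%) at least 1.5-fold lower. The middle genes gave 227 (3.43%) and 48 (0.726%), and the dim genes 504 (7.62%) and 269 (4.07%). Genes at least 1.5-fold higher outnumbered those at least 1.5-fold lower in each part, though under spike-in scaling the bright genes gave 12 higher and 266 lower. Of the 127 bright genes that were higher, 27 were transcripts without a gene symbol.

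**Figure D1:**
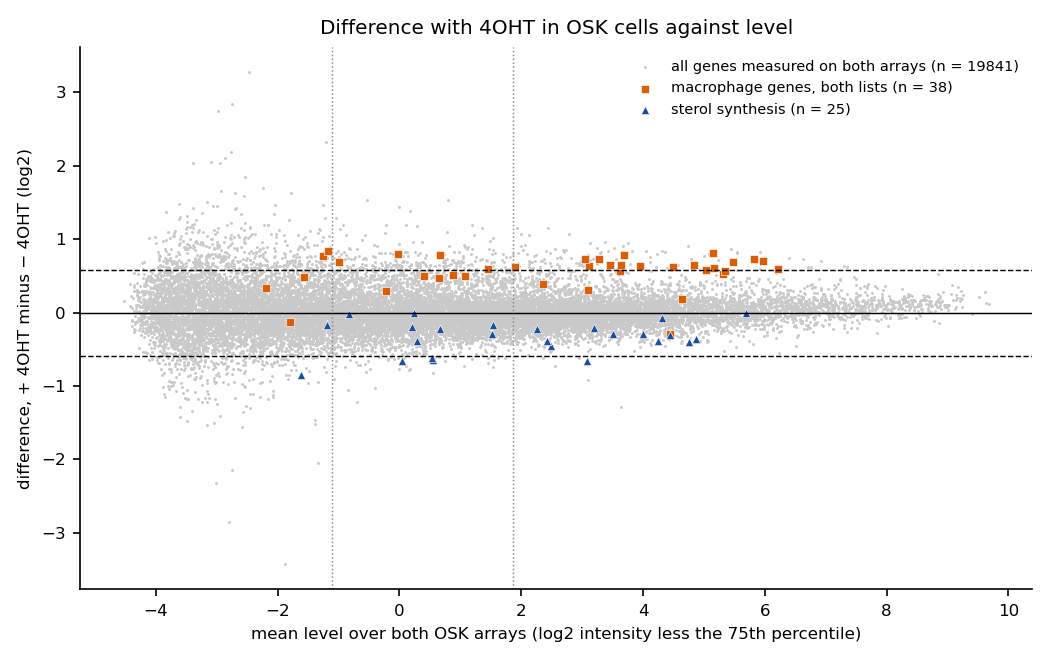
Difference with 4OHT in OSK cells (log2, + 4OHT minus − 4OHT) against the mean level on both OSK arrays, 1 point per gene for the 19841 genes measured on both. Dashed lines mark 1.5-fold and dotted lines the borders between dim, middle and bright genes; 36 of the 38 macrophage genes (squares) lie above 0 and the 25 sterol synthesis genes (triangles) lie below it.

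The 10 bright genes with a symbol and the largest positive differences with 4OHT are given in turn. Ccl4, a chemokine of activated macrophages (chromosome 11, 83478052 to 83478111), read 2.90 in OSK − 4OHT, 3.86 in OSK + 4OHT, 3.84 in OSKA − 4OHT and 3.19 in OSKA + 4OHT. With 4OHT in OSK cells it was 1.94-fold higher, a difference of 0.96 with a software error of 0.20. Cd52, a surface glycoprotein of leukocytes (chromosome 4, 133649505 to 133649564), read 3.23, 4.13, 4.19 and 4.48 on the arrays in the same order, and Coro1a, which binds actin in leukocytes, 3.09, 3.97, 3.74 and 3.57. For all 3 genes OSK − 4OHT was the lowest of the 4 arrays, and the OSKA arrays lay on the side of OSK + 4OHT except for Ccl4 in OSKA + 4OHT.

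Of the same 10 genes, Bcl2a1d, a survival gene with near-identical copies that its probe may not separate, read 2.66, 3.60, 3.42 and 3.24. Nfkbid, an inhibitor of NF-κB, read 1.55, 2.45, 2.15 and 1.69, and the tyrosine phosphatase gene Ptpn18 4.29, 5.19, 5.07 and 4.92. Each of them was highest in OSK + 4OHT.

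The 3 largest of the 10 differences were those of Cyp17a1, Ctla2a and Dvl3. Cyp17a1, an enzyme of steroid hormone synthesis (chromosome 19, 46742594 to 46743207), read 1.87 in OSK − 4OHT, 3.02 in OSK + 4OHT, 2.38 in OSKA − 4OHT and 3.06 in OSKA + 4OHT and was 2.21-fold higher with 4OHT in OSK cells. Ctla2a, an inhibitor of cysteine proteases, read 1.47, 2.53, 2.45 and 2.04, and Dvl3, which relays Wnt signals, 2.25, 3.32, 2.84 and 3.04. Galnt6, an enzyme of O-glycosylation, completed the 10 with 1.60, 2.51, 2.32 and 2.14, and its second probe differed by 1.21. All 10 genes had their lowest level in OSK − 4OHT.

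Among the next 15 with a symbol, from which genes were picked after their values were seen, the list went on to include Lpl, a lipase for circulating fat (2.12 without and 2.99 with 4OHT, second probe 0.78), Trem2, a lipid-sensing receptor of macrophages (5.01 and 5.87), the complement gene C2 (1.61 and 2.46) and the chemokine gene Pf4 (3.40 and 4.24). Laptm5, a lysosomal membrane protein of blood cells, read 3.01 and 3.85 with a second probe at 0.69. The chemokine gene Ccl8 read 3.30 and 4.12, and Ccl12 read 3.63 and 4.47.

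**Figure D2:**
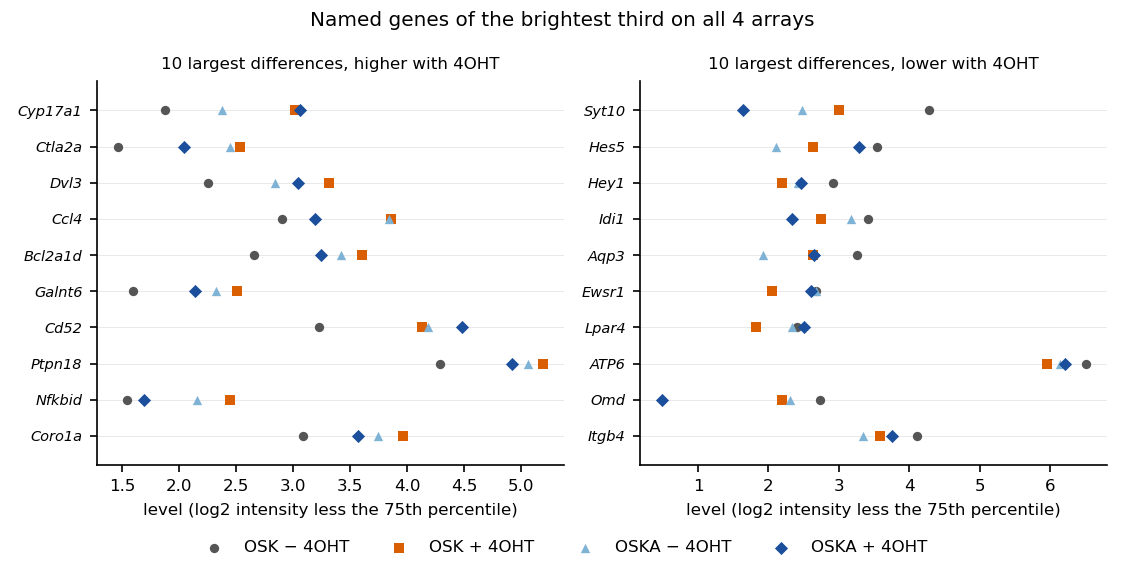
Levels (log2 intensity less the 75th percentile) for the 10 named bright genes with the largest positive differences (left) and the 10 with the largest negative differences (right) with 4OHT in OSK cells, 1 point per array. OSK − 4OHT (circles) is the lowest of the 4 arrays in every row on the left, and on the right it is the highest in every row but Lpar4 and Ewsr1.

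Primary fibroblast cultures from whole embryos can hold macrophages, so the marker genes of macrophages were read as a list. It was written with earlier results of these data known and is no independent evidence of its direction. Of 10 markers 9 were higher with 4OHT, 4 of them at least 1.5-fold (4.32% of all genes), and the median difference was 0.51 against −0.0037 for all genes. Under spike-in scaling 7 of 10 were higher and 0 reached 1.5-fold. Aif1, a calcium-binding protein of macrophages, read 3.30 in OSK − 4OHT, 4.09 in OSK + 4OHT, 4.00 in OSKA − 4OHT and 4.43 in OSKA + 4OHT. Csf1r, the receptor for their main growth factor, read 5.91, 6.51, 6.50 and 6.33, and Adgre1, a surface receptor typical of them, 3.63, 4.27, 4.24 and 4.32. OSK − 4OHT was the lowest of the 4 arrays for 9 of the 10 markers. Lyz2, which encodes lysozyme, differed by only 0.19. Itgam, the exception, read 4.59, 4.30, 4.41 and 3.91, and its other 2 probes differed by 0.36 to 0.66.

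A second list of macrophage genes was written after the bright genes had been seen, so it too is no independent evidence of its direction. It gave 27 higher of 28 measured, where 49.4% of all genes were higher. Of the 27, 18 were at least 1.5-fold higher (4.32% of all genes), and the median of the list was 0.63. Under spike-in scaling 27 were higher and 0 reached 1.5-fold. The genes of complement C1q read 4.52, 5.17, 5.14 and 5.11 for C1qa, 4.19, 4.81, 4.81 and 4.75 for C1qb and 4.75, 5.56, 5.43 and 5.47 for C1qc, in the order OSK − 4OHT, OSK + 4OHT, OSKA − 4OHT and OSKA + 4OHT. Tyrobp and Fcer1g, adaptors that pass on signals from macrophage receptors, read 5.13, 5.82, 5.69 and 5.48, and 5.62, 6.32, 6.21 and 6.04. Here too the step lay between OSK − 4OHT and the other 3 arrays. Siglec1, a sialic acid receptor, had the largest difference of the list at 0.84. Cd74, which escorts MHC class II proteins, was the exception at −0.13. The scavenger receptor gene Cd163 was not well above background.

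Summed over the markers on a linear scale, OSK + 4OHT held 1.37 times the level of OSK − 4OHT, OSKA − 4OHT 1.36 times and OSKA + 4OHT 1.24 times. For the second list the sums were 1.57, 1.54 and 1.44, and OSK − 4OHT was the lowest array for 26 of its 28 genes. Among bright genes, 4 of the 7 markers were at least 1.5-fold higher, where 1.92% of all bright genes were. With the second list, chosen with values seen, 16 of 24 were, and leaving these out left 111 of the 127 bright genes called. In bulk RNA, more macrophages and more of these transcripts in each macrophage cannot be told apart.

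**Figure D3:**
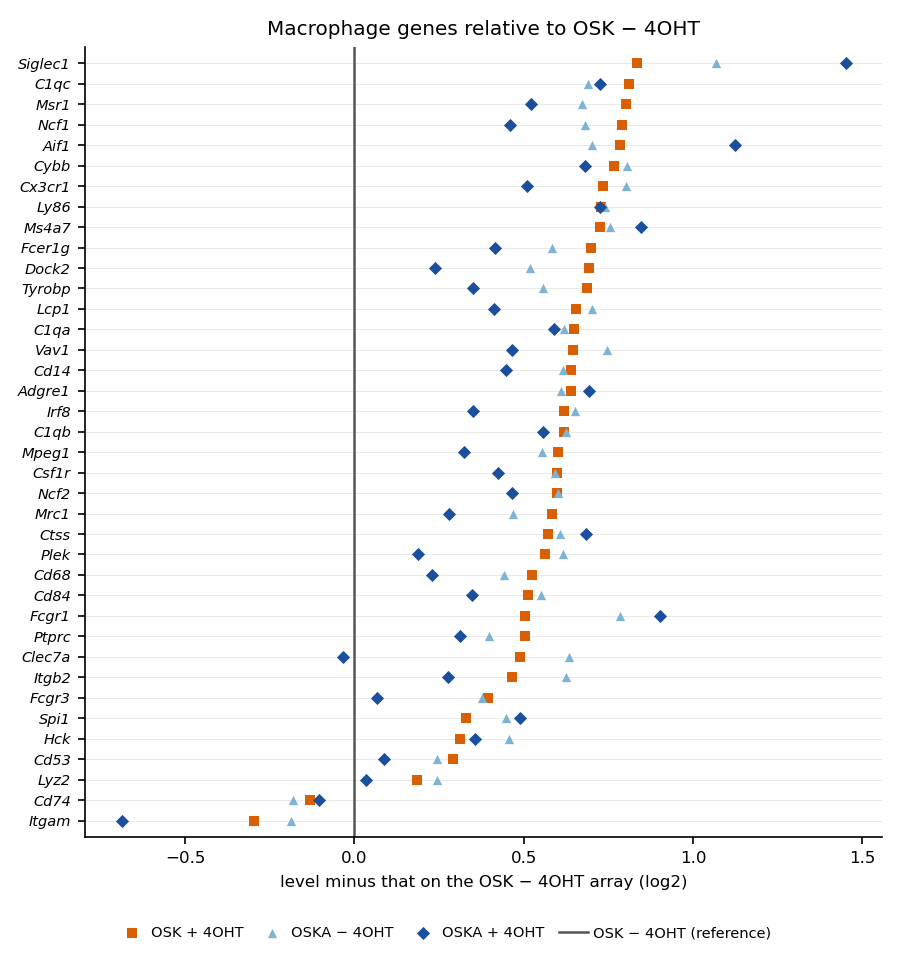
Macrophage genes measured on both OSK arrays (38 genes of both lists), as the level minus that on the OSK − 4OHT array (log2), which is the vertical line at 0; 1 point per gene for each of the other 3 arrays. OSK + 4OHT (squares) and OSKA − 4OHT (triangles), whose medians over the longer list are 0.63 and 0.62, lie to the right of 0 for every gene except Cd74 and Itgam.

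Markers of other blood and tissue cells were read in the same way. Of 8 lymphocyte genes 3 were measured, all of them higher (2 under spike-in scaling), with a median of 0.45, while Ms4a1, Cd8a and Cd79b were not well above background, and the same was true of S100a8, S100a9 and Mpo of neutrophils and of Klf1 and Alas2 of red cells. Cd4, which some macrophages carry, read 1.25 without and 1.70 with 4OHT, and Cd3e, a subunit of the T-cell receptor, 0.049 and 0.56. Of 7 osteoclast genes 4 were measured, all of them higher (0 under spike-in scaling), with a median of 0.16, of 8 neutrophil and mast cell genes 2, with Ly6g at −0.26 and Elane at 0.18, and of 5 red cell genes 0. Of 9 endothelial genes 4 were measured and did not move together. Kdr, a receptor for vascular growth factor, read 2.71 and 3.44 (second probe 0.61), Vwf differed by 0.71, Pecam1 by −0.010 and Tek by −0.56. Of 5 measured adipocyte markers 4 were higher, among them Lpl, with a median of 0.26, and 2 were higher under spike-in scaling. Cartilage and bone had 5 of 6 markers lower and a median of −0.33. Neural markers had 4 of 7 lower, and 2 of 9 muscle markers were measured. The 12 markers of MEFs were all measured, as the label of the cells implies, with a median difference of 0.016. They ran from −0.36 in Pdgfra, a growth factor receptor, to 0.35 in Thy1, a surface glycoprotein.

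The levels of the called genes on the OSKA arrays were described next, since OSKA − 4OHT is a second culture that had no drug. Of the 127 bright genes that were higher with 4OHT, 86 had both OSKA arrays on the OSK + 4OHT side of the midpoint between the OSK arrays, 1 had both on the OSK − 4OHT side and 40 were split. The same counts over all 6614 bright genes were 2925, 1728 and 1961. Relative to OSK − 4OHT, the 127 genes had a median of 0.73 in OSK + 4OHT, 0.62 in OSKA − 4OHT and 0.52 in OSKA + 4OHT. The genes were chosen for their distance between the OSK arrays, so these positions are a description. Among the middle genes, 158 of the 227 that were higher had both OSKA arrays on the side of OSK + 4OHT and 9 on the other side. Over all 6613 middle genes these counts were 3111 and 1274, and for the 48 that were lower 25 and 8. For 482 dim genes that were higher and measured on all 4 arrays they were 290 and 61, against 2534 and 1450 over 6295 dim genes. On single arrays the drug, AKT-MER and the culture itself cannot be told apart in these positions.

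Few bright genes were lower with 4OHT. Syt10, a synaptotagmin that senses calcium at vesicles (chromosome 15, 89612967 to 89613026), read 4.29 in OSK − 4OHT, 3.00 in OSK + 4OHT, 2.48 in OSKA − 4OHT and 1.64 in OSKA + 4OHT and was 2.44-fold lower with 4OHT in OSK cells. Its level was lower still in AKT-MER cells, with and without the drug. Aqp3, a channel for water and glycerol, read 3.25, 2.63, 1.93 and 2.65, and Itgb4, an integrin of epithelial cells, 4.11, 3.59, 3.34 and 3.76. In both, OSK − 4OHT was the highest array. Lpar4, a receptor for lysophosphatidic acid, had the other pattern with 2.40, 1.83, 2.33 and 2.51, where OSK + 4OHT was the array apart. Ewsr1, an RNA-binding protein gene, read 2.67, 2.05, 2.67 and 2.60, but its other probe differed by 0.30. Omd, a proteoglycan of bone, differed by −0.54. The probe named ATP6, after a mitochondrial gene, differed by −0.55 and is placed on chromosome 1 by the array design, so the copy it read is uncertain.

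Behind Syt10, the next largest differences were in genes switched on by Notch, Hes5 and Hey1. Notch is a receptor that is cut when it meets a ligand on a neighbouring cell, and its inner part joins Rbpj on DNA to activate repressors of the Hes and Hey families. Hes5 (chromosome 4, 154336347 to 154336406) read 3.55 in OSK − 4OHT, 2.63 in OSK + 4OHT, 2.11 in OSKA − 4OHT and 3.29 in OSKA + 4OHT. Hey1 (chromosome 3, 8663432 to 8663491) read 2.91, 2.19, 2.42 and 2.46 in the same order. A list of the pathway, written after these values were seen, had 4 of 12 measured genes higher and 8 lower, 4 of them at least 1.5-fold (1.63% of all genes), with a median of −0.24. Those past 1.5-fold numbered 2 under normexp and 5 under spike-in scaling, where 11 were lower.

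The target genes and the receptors of the pathway differed in their values. Hes1 read 1.22 without and 0.94 with 4OHT, Hey2 −2.54 and −3.15 and Nrarp, a feedback inhibitor, −0.036 and −0.64. Heyl was well above background without 4OHT, at −3.55, and not with it. The receptor genes Notch1, Notch2 and Notch3 differed by −0.20, −0.058 and 0.11, and the ligand genes Jag1 and Jag2 by 0.13 and −0.46. Rbpj differed by 0.14, with another probe at 1.38. OSK − 4OHT was the highest of the 4 arrays for 7 of the 12 genes.

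The promoter windows of RefSeq (GRCm38.p6), which run from 250 bases before to 50 bases after a start site, were searched on both strands for TGGGAA, the core of an Rbpj site. It was present in 3 of the 10 Notch pathway genes with a window, and in 28.3% of all genes. The Hes5 window is shown over the stretch that holds its 2 matches (chr4:154960673-154960886, plus strand), which are in capitals.

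Hes5: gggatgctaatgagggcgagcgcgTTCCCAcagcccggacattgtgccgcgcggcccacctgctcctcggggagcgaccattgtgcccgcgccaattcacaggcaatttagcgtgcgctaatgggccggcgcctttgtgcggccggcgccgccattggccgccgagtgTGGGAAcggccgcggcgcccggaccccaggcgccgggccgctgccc

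Genes of sterol synthesis lay at or below 0 along the whole pathway. These enzymes make cholesterol from acetyl-CoA through mevalonate, and the factor Srebf2 drives their genes together when membranes run short of sterol. None of the 25 genes was higher with 4OHT, 5 were at least 1.5-fold lower (1.63% of all genes), and the median difference was −0.30 against −0.0037 for all genes. Under spike-in scaling all 25 were lower, and under cyclic loess 24, while those past 1.5-fold numbered 2 under normexp and 15 under spike-in scaling. The mevalonate steps gave Hmgcs1 at 5.04 without and 4.68 with 4OHT, Mvk at 4.59 and 4.28 and Idi1, the isomerase of the isoprene unit, at 3.41 and 2.75. Fdps, which joins the isoprene units, read 4.95 and 4.55. Of these 4 genes Idi1 was past 1.5-fold.

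The steps from the making of squalene onwards held further enzymes past 1.5-fold. Lss, which closes the sterol ring, read 0.88 without and 0.22 with 4OHT. Cyp51, the demethylase that antifungal azoles block, read 0.84 and 0.23, and Nsdhl, which acts after it, 0.37 and −0.30 with a second probe at −0.39. Fdft1, squalene synthase, read 2.72 and 2.27, but its second probe differed by 0.37. Msmo1 and Sqle, oxidases of the pathway, read 4.45 and 4.06, and 4.14 and 3.85. Srebf2 itself read 0.31 and 0.11. The members nearest to 0 were Ebp at −0.0026 and Insig1, which holds back the activation of Srebf2, at −0.0092.

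On the OSKA arrays the sterol genes were ordered unlike the macrophage genes. Relative to OSK − 4OHT their median was −0.30 in OSK + 4OHT, −0.12 in OSKA − 4OHT and −0.52 in OSKA + 4OHT. Both cultures with 4OHT thus had lower medians than both without it, whereas for the macrophage genes OSKA − 4OHT stood with OSK + 4OHT. Idi1 read 3.41, 2.75, 3.17 and 2.34 on the arrays in the usual order, and Lss 0.88, 0.22, 0.58 and −0.14. OSK − 4OHT was the highest of the 4 arrays for 19 of the 25 genes. The distance between the 2 untreated cultures also contains the effect of AKT-MER, and the level in OSKA + 4OHT that of AKT-MER together with 4OHT. On single arrays the drug, AKT-MER and the culture itself cannot be told apart in this order.

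**Figure D4:**
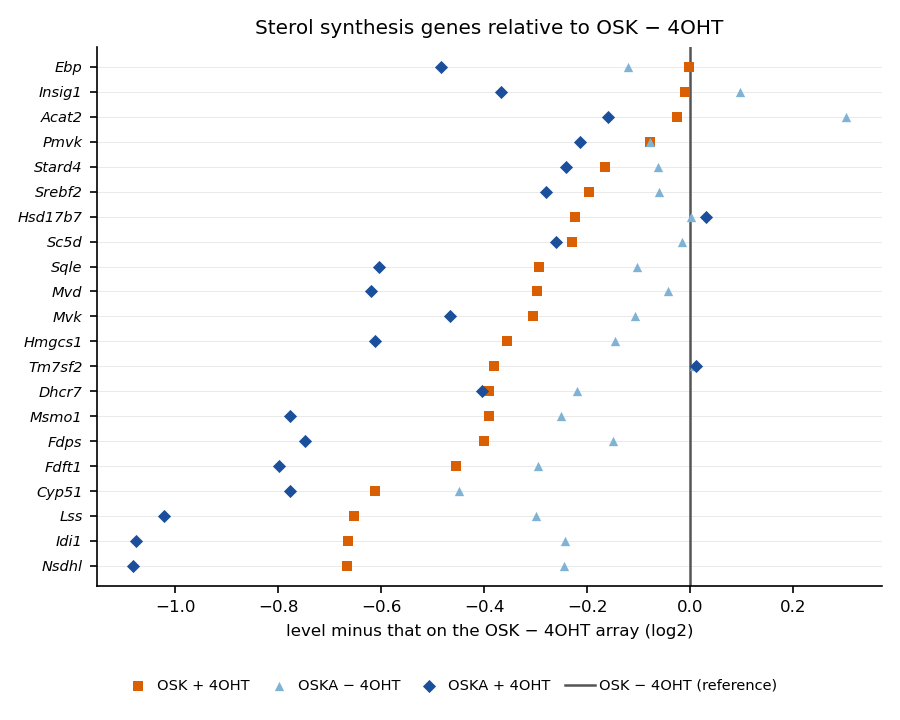
Sterol synthesis genes (21 of the 25 measured) as the level minus that on the OSK − 4OHT array (log2), which is the vertical line at 0; 1 point per gene for each of the other 3 arrays. OSK + 4OHT (squares) lies left of 0 in every row, and over all 25 genes OSKA − 4OHT (triangles) has a median of −0.12 and OSKA + 4OHT (diamonds) one of −0.52.

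The letters TCACNCCAC, a form of the sterol regulatory element, were found in the window of 1 of the 17 sterol genes that had one, Hmgcs1, and in 1.44% of all genes. That stretch (chr13:119690174-119690262, plus strand, GRCm38.p6) is printed with the match in capitals. The letters GAGGAAGT, bound by the macrophage factor PU.1, were found on either strand in 4 of the 27 macrophage genes with a window and in 3.69% of all genes. Of these, C1qc (chr4:136893062-136893149, minus strand) and Vav1 (chr17:57279049-57279136, plus strand) are shown as the pair with the largest differences, 0.81 and 0.65. A match describes the letters and not the binding of a factor.

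Hmgcs1: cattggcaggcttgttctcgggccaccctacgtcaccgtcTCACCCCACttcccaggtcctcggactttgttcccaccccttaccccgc
C1qc: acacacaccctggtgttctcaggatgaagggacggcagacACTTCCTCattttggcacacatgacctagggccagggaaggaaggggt
Vav1: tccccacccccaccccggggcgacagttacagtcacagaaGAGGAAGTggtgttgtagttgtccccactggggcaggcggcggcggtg

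Fatty acid synthesis, which the related factor Srebf1 drives, leaned the same way. Of 14 genes 12 were lower and 2 higher, with a median of −0.16. Acss2, which activates acetate, read 1.08 in OSK − 4OHT, 0.42 in OSK + 4OHT, 0.97 in OSKA − 4OHT and 0.88 in OSKA + 4OHT, and its second probe differed by −0.56. Fasn, the fatty acid synthase, read −0.77, −1.33, −0.98 and −1.199. Both genes had their lowest level in OSK + 4OHT. Srebf1 and Mid1ip1 were higher by 0.16 and 0.24, and were lower under spike-in scaling.

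Genes that export sterol leaned upwards. Of 12 genes 10 were higher and 2 reached 1.5-fold (4.32% of all genes), with a median of 0.098, while under spike-in scaling 3 were higher and 0 reached 1.5-fold. Apoe, a carrier of lipids, read 6.57 in OSK − 4OHT, 7.28 in OSK + 4OHT, 7.06 in OSKA − 4OHT and 6.94 in OSKA + 4OHT, and the pump gene Abcg1 0.094, 0.75, 0.86 and 1.33. Abca1, the other main pump gene, differed by 0.10. Macrophages express Apoe, Abcg1 and Lpl strongly, and the summed level of their 10 markers in OSK + 4OHT was 1.37 times that in OSK − 4OHT. The part of macrophage RNA in these values was not tested.

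Lysosomal genes leaned upwards too. Of 27 genes of lysosomes and autophagy 20 were higher with 4OHT, 1 of them at least 1.5-fold (4.32% of all genes), and the median was 0.16, while under spike-in scaling 9 were higher. Under quantile, loess, normexp and spike-in scaling none reached 1.5-fold higher. Ctsd, also in the estrogen list, read 6.98 in OSK − 4OHT, 7.62 in OSK + 4OHT, 7.49 in OSKA − 4OHT and 7.29 in OSKA + 4OHT. Ctsb, another cathepsin, read 7.23, 7.70, 7.62 and 7.55. Both had their lowest level in OSK − 4OHT, as did 15 of the 27 genes. Lipa, the acid lipase, differed by 0.46, while the proton pump genes Atp6v0d1 and Atp6v1h differed by 0.12 and −0.074. Tfeb, the master factor of lysosome genes, differed by 0.041, and the autophagy genes Map1lc3b and Sqstm1 by −0.091 and −0.39. The second probe of Sqstm1 differed by 0.052. None of these genes is on a macrophage list, but macrophages are rich in lysosomes, and the part of the macrophage values above in this difference was not tested.

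The inflammatory list also leaned upwards. Of 19 genes 13 were higher, with a median of 0.13, and 4 were higher under spike-in scaling. Il6 and Lif, cytokines of fibroblasts and other cells, differed by 0.50 and 0.43. Ptgs2, the inducible cyclooxygenase, differed by −0.40. The interferon response had 16 of 33 genes higher, or 4 under spike-in scaling, and a median of −0.0022.

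Growth factor response genes leaned lower. Of 21 immediate early and ERK feedback genes 16 were lower and 5 higher, with a median of −0.19, and 0 reached 1.5-fold. Under spike-in scaling 20 were lower, 5 of them at least 1.5-fold. Fos, a partner of the AP-1 factor, read 6.03 in OSK − 4OHT, 5.60 in OSK + 4OHT, 5.51 in OSKA − 4OHT and 5.28 in OSKA + 4OHT, and Egr1, a zinc finger factor, 6.74, 6.28, 6.29 and 5.82. Both had their highest level in OSK − 4OHT, as did 15 of the 21 genes. Targets of p53 and inhibitors of cyclin-dependent kinases leaned upwards, with 17 of 22 higher and a median of 0.12, but 3 higher under spike-in scaling. Cdkn2a, which encodes p16 and Arf, read 4.10, 4.70, 4.57 and 4.70 and its second probe differed by 0.59. Cdkn1a, which encodes p21, differed by 0.29 and Trp53inp1, a p53 target, by −0.46 with another probe at 0.63.

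Stress programmes that drugs often evoke stayed near the bulk of the genes. The median difference was 0.063 for 16 genes of endoplasmic reticulum stress, 0.012 for 22 ATF4 targets and −0.090 for 15 NRF2 targets. Single members departed from this. Slc7a11, the cystine transporter that both ATF4 and NRF2 induce, read −3.30 without and −4.30 with 4OHT. The latter lies near −4.54, the lowest level well above background on the OSK + 4OHT array. Under normexp no ATF4 or NRF2 target was past 1.5-fold. Sel1l, which helps to clear misfolded proteins, differed by −0.73. The heat shock gene Hspa1a differed by −0.60 and was not past 1.5-fold under normexp. The heat shock list had a median of 0.0094, below 0 under quantile, loess, normexp and spike-in scaling.

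Lists of growth and metabolism were divided between medians near 0 and medians that leaned upwards. The medians were 0.077 for 21 genes of mitosis (below that of all genes with no filter on dim probes), −0.026 for 21 of DNA replication, −0.045 for 30 of the TCA cycle and −0.0012 for 20 FOXO targets. Glycolysis had 17 of 20 genes higher, with a median of 0.11, but 1 higher under spike-in scaling. Hypoxia genes had 9 of 14 higher with a median of 0.13, or 2 higher under spike-in scaling. Housekeeping genes had 9 of 14 higher with a median of 0.14, or 2 higher under spike-in scaling. Ribosomal protein genes had 22 of 24 higher and a median of 0.13, but 11 higher after quantile normalization and 0 under spike-in scaling. Of 18 TGF-beta and SRF targets 12 were higher, with a median of 0.13, and 5 under spike-in scaling. Ankrd1, a muscle ankyrin repeat gene in that list, read −4.10 without and −2.88 with 4OHT. These are dim levels, and under normexp no gene of that list was past 1.5-fold.

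**Figure D5:**
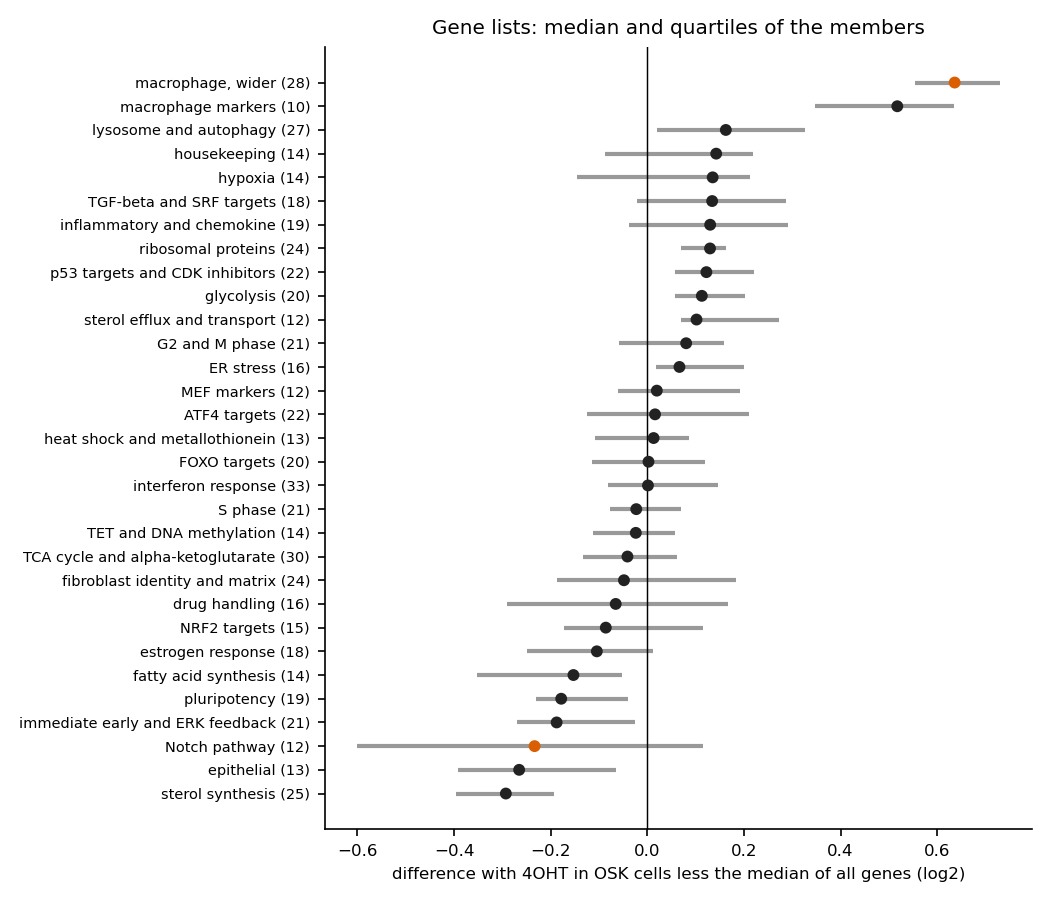
Median (point) and quartiles (bar) of the difference with 4OHT in OSK cells, less the median of all genes (log2), for each list with at least 10 measured genes (number in brackets). Orange points are lists written after the bright genes had been seen, and the other lists were written with earlier results of these data known. Both macrophage lists lie at the top, at 0.52 and 0.64, and sterol synthesis at the bottom, at −0.29.

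Since the cells were being reprogrammed, genes of that process were read as well. Pou5f1, which encodes Oct4 and was also a transgene, read 1.81 in OSK − 4OHT, 1.23 in OSK + 4OHT, 1.29 in OSKA − 4OHT and 1.71 in OSKA + 4OHT. Klf4, another transgene, differed by −0.20, and Sox2 was not well above background. Whether a probe reads the transgene or the cell's own gene was not analysed here. Akt1 and Akt2, native kinases, differed by −0.078 and −0.026.

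Of 19 measured pluripotency genes 15 were lower and 4 higher, with a median of −0.18. Less the median of all genes it was −0.18, against −0.080 under normexp and −0.070 with the mean of all probes of a gene. Nanog, a core factor, read −0.50, 0.034, −0.20 and −0.39 on the arrays in the usual order, but its other probe differed by −0.53, so its direction was not settled. Fut4, which makes the SSEA-1 epitope, differed by 0.67 and Alpl, an alkaline phosphatase, by −0.43. Both are dim genes, and under normexp no pluripotency gene was past 1.5-fold. Epithelial genes, which are turned on early in reprogramming, had 10 of 13 lower and a median of −0.27, which less that of all genes was −0.15 with no filter on dim probes. Cdh1, which encodes E-cadherin, read −0.81 without and −1.40 with 4OHT, and Dsp, a protein of desmosomes, −1.71 and −2.40. Under normexp no epithelial gene was past 1.5-fold. The DNA demethylase gene Tet1 differed by −0.30, but its other 2 probes ran from −0.27 to 0.28, so its direction was not settled. The list of 14 genes that holds Tet1 had a median of −0.027. The fibroblast list had 10 of 24 genes higher, or 2 under spike-in scaling, with a median of −0.052.

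Among the middle genes with a symbol the largest positive differences were in Tulp1, a photoreceptor gene (0.035, 1.57, 0.96 and 1.05, with another probe at −0.18), and Ctnna2, a catenin of neurons (−1.30, 0.23, 0.88 and 0.72). The largest in the other direction, again with a symbol, were in Supt3, a subunit of the SAGA complex (−0.082, −1.30, −1.18 and −1.65), and Akr1c14, a steroid dehydrogenase (0.97, 0.15, 0.10 and −1.51). OSK − 4OHT was the lowest array for the first pair and the highest for the second. Serpina3f and Pstpip2 differed by 1.195 and 1.19, with other probes at 0.47 and 0.24. AI467606 differed by 1.28. On the lower side Cpm, a carboxypeptidase, differed by −0.81, Insm1, a neuroendocrine factor, by −0.78 and Apcdd1, a Wnt inhibitor, by −0.77.

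Genes with several probes gave a check on single probes. Of 5429 genes with at least 2 measured probes, 769 had at least 1 past 1.5-fold. Every probe was at least 1.5-fold higher for 61 genes and at least 1.5-fold lower for 9. Of the 255 genes past 1.5-fold by their brightest probe that had at least 2 measured probes, 186 had every probe in the same direction. Among bright genes this was so for 23 of 34, and the share over all genes with several probes is not given here. Every probe was past 1.5-fold for fewer, 11 of the 34 bright, 23 of the 91 middle and 36 of the 130 dim genes. Flt1, a receptor for vascular growth factor, had probes at 1.15 and 1.57, and its brightest one read 0.78, 1.93, 2.46 and 1.60. Cd72, a lectin of B cells and macrophages, had probes at 0.81 and 0.83 and read 2.08, 2.88, 3.12 and 3.15. Ifi202b, an interferon-inducible gene, had probes at 1.46 and 1.70 and the granzyme gene Gzme at 1.12 and 1.52. Towards lower values Tlcd3a had probes at −0.80 and −0.80, Agbl2 at −0.77 and −0.63 and Rgs6, a regulator of G-protein signals, at −0.70 and −0.61, all dim genes.

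Differences among dim genes with a symbol were larger still, and background correction bears on their value. Kif6, a kinesin (chromosome 17, 50049101 to 50049160), read −4.11, −0.83, −3.72 and −4.20, and its other probe differed by −0.19. Under normexp with quantile normalization the difference in Kif6 was 1.63 in place of 3.28. Crebrf, a regulator of the CREB3 factor (chromosome 17, 26909228 to 26909287), read −0.16 without and −3.59 with 4OHT, a difference of −3.43 that was −2.16 under normexp. Gkn3 and 4930581F22Rik were higher by 2.32 and 2.19, and Adamtsl2 and Ifna7 differed by −2.32 and −2.14.

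For genes well above background on 1 OSK array alone, the fold is a lower bound, set against the higher of the dim probe's own value and the lowest level measurable on that array. The bound was at least 2-fold for 147 of 606 genes measured only with 4OHT and for 156 of those measured only without it, of which 882 of the 908 gave a bound. For genes with a symbol the largest bounds with 4OHT were at least 17.4-fold for Olfr1318, an odorant receptor, 17.3-fold for Rgs9, a regulator of G-protein signals, and 9.53-fold for Lcn8, a lipocalin. Without 4OHT they were at least 10.9-fold for Wfdc5, 10.01-fold for 4930512J16Rik and 6.68-fold for Defb13, a defensin. All 6 genes were also not well above background on both OSKA arrays.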

How the data were processed

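RNA of 4 cultures was measured on 4 one-colour (Cy3) Agilent arrays, 1 per group, from 100 ng of total RNA. The deposited scanner files hold an intensity per spot on a linear scale, which the authors obtained with Agilent Feature Extraction 10.7.3.1 (per the submitters' processing notes), background-subtracted and not normalized between arrays. Control spots and between 104 and 155 spots per array marked as uneven or outliers were left out, log2 intensity was reduced by the 75th percentile of the array, and spots of a probe were averaged. Of 55681 probes 49.4% were named through RefSeq accessions (GRCm38.p6), and the others keep the name in the files. Coordinates of probes are those of the files (NCBI37). No spot was saturated. A difference was taken where a probe was well above background on both OSK arrays, and a gene is its brightest probe.

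With 1 array per group no test was run, and counts past 2-fold and 1.5-fold are descriptions. Precision is limited by the number of arrays. The named genes with a symbol were the 10 largest differences each way among bright genes, 5 among middle and 3 among dim genes (3 equal parts by mean level), the genes with several probes that moved together, the 3 largest bounds each way, the drug targets, MEF markers and reprogramming factors, and the extremes of each list. Other named members show the steps of a pathway and were picked with their values known. The values of some genes chosen by this rule are not reported here. The members and the 36 lists were chosen with earlier results of these data known, and 6 more lists (the longer macrophage list, lymphocytes, neutrophils and mast cells, red cells, osteoclasts, Notch) after the bright genes had been seen. The scripts were tested on simulated data. Alternatives were quantile normalization, cyclic loess and normexp (limma 3.58.1, R 4.3.3), spike-in scaling, other filters on dim probes and marked spots, the deposited series matrix (the same intensity, rounded by the authors) and the mean of all probes. Other steps used Python 3.11.15, numpy 2.4.6 and pandas 2.3.3.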

Additional observations from a re-analysis of the deposited data

Results flagged for a closer look

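For 6 gene lists the median difference with 4OHT, less that of all genes, had opposite signs in OSK and OSKA cells by at least 0.1 on each side. With 1 array per group, these differences between the cell types were not tested. In OSK cells fatty acid synthesis lay at −0.15 and in OSKA cells at 0.13. The lysosome and autophagy genes lay at 0.16 in OSK and −0.14 in OSKA cells, and the 10 macrophage markers at 0.52 and −0.13. The TGF-beta and SRF targets lay at 0.13 in OSK and −0.62 in OSKA cells. The epithelial genes lay at −0.27 and 0.41, and the pluripotency genes at −0.18 and 0.11.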

How the results depend on the processing

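No paired analysis was possible because each group had 1 array, and for the same reason no replicate could be left out. The 121 genes at least 2-fold higher and 55 lower became 22 and 8 under normexp, 34 and 175 under spike-in scaling, 1266 and 1206 with no filter on dim probes, and 858 and 323 at 1.5-fold. Normexp shared 30 of the 176 genes and spike-in scaling 89. The 127 bright genes at least 1.5-fold higher and 6 lower became 12 and 266 under spike-in scaling and 289 and 34 with no filter, and the mean of all probes gave 10 lower; these alternatives for the bright genes, and the count without macrophage genes, were chosen after seeing the data. Of the list medians less that of all genes, the endothelial one reversed from 0.35 to −0.088 with no filter. With no filter the epithelial median was −0.15 and that of mitosis −0.046, and with the mean of all probes the pluripotency median was −0.070. Quantile normalization and normexp gave 0.016 and 0.0058 for ribosomal proteins, and 0.019 and 0.028 for housekeeping genes. Spike-in scaling cannot move a list median less that of all genes, and of the other 312 comparisons of list medians 301 moved by under 0.1, while 49 of 1860 comparisons of named genes turned sign, 35 of them under spike-in scaling and none in a gene past 1.5-fold. The cause of these shifts was not tested. The distance from background limits the dim genes.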
